A study of Homo sapiens with 8 samples.

Results

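U937 is an established human leukaemia line that resembles an early monocyte precursor. The comparison covers U937 cells given 10 mM dG, the customary abbreviation of deoxyguanosine (the labels do not spell it out), against U937 cells given the vehicle, phosphate-buffered saline (PBS). The medium was RPMI with dialyzed fetal bovine serum in both groups, and the duration of treatment is not given in the sources used here. Each group has 2 poly(A)-selected RNA-seq libraries. The genes described are those with at least 1 CPM (a gene's count scaled to a common library total) in at least 2 of these 4 libraries, which held for 14265 of the 57992 genes in the count table. The series title links deoxynucleotide balance to the block in maturation of acute myeloid leukaemia, and the comparison addresses what added dG does to the mRNA of a monocytic line.

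Deoxynucleosides enter cells through nucleoside transporters and are phosphorylated by salvage kinases to the precursors of DNA. Ribonucleotide reductase makes the same precursors from ribonucleotides, and its output is tuned by their balance. MYC, the transcription factor that drives growth in many leukaemias, acts as a dimer with MAX on E-box sequences and promotes ribosome production and nucleotide synthesis. The MXD proteins and MNT compete for MAX and act in the opposite sense. Maturing monocytes and macrophages typically make MHC class II molecules, integrins, phagocytic receptors, lysosomal hydrolases and ferritin.

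The PBS libraries held 31135338 and 24404511 counts and the dG libraries 23921246 and 21053724, so that 1 count equalled 0.0321 to 0.0475 CPM. Replicates correlated at 0.998 across genes on the log scale and libraries of different groups at 0.947 to 0.949. Whether the 2 libraries of a group stem from different cultures is not stated in the labels, and the spread behind each p-value may therefore be technical. Markers of the line were present: PTPRC, the pan-leukocyte CD45, was at 430 and 425 CPM in PBS and 591 and 577 CPM in dG, and SPI1, HOXA9 and HOXA10 were each above 50 CPM in every library. MPO held 0 to 5 counts per library and CD34 7 to 16, so both were near absent. In bulk RNA, a change in the share of cells of a kind and a change in RNA per cell cannot be told apart.

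With edgeR's quasi-likelihood test and a Benjamini-Hochberg adjusted p under 0.05 over 18314 genes tested, 10785 of the 14265 genes were called (75.6%), of which 5464 rose (38.3% of the genes) and 5321 fell (37.3%). Over all genes tested, 64.0% were called, 32.4% higher and 31.5% lower. These shares are the background for every list below. At 2-fold or more, 1332 genes rose (9.34%) and 1009 fell (7.07%), beside 9.71% and 7.74% of all genes tested. The tail of large changes leaned upward: 153 genes rose and 21 fell at least 8-fold. The median log2 fold change of all 14265 genes was -0.01, with quartiles of -0.42 and 0.43. The 2 dG libraries lay on 1 side of both PBS libraries for 87.5% of the genes with 1 CPM and 78.9% of all genes tested. Genes that passed 1 CPM through the dG libraries alone numbered 556, of which 471 rose, and these had to be higher in dG by the way they were chosen. In the same way, 539 genes passed through the PBS libraries alone and had to be lower in dG, and 385 of them were called lower. Of the 1009 falls of 2-fold or more, 276 were of this kind, and of the 1332 such rises 398 were of the dG kind. The counts at 8-fold were not split in this way and include genes of both kinds, whose direction was fixed by the choice.

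**Figure D1:**
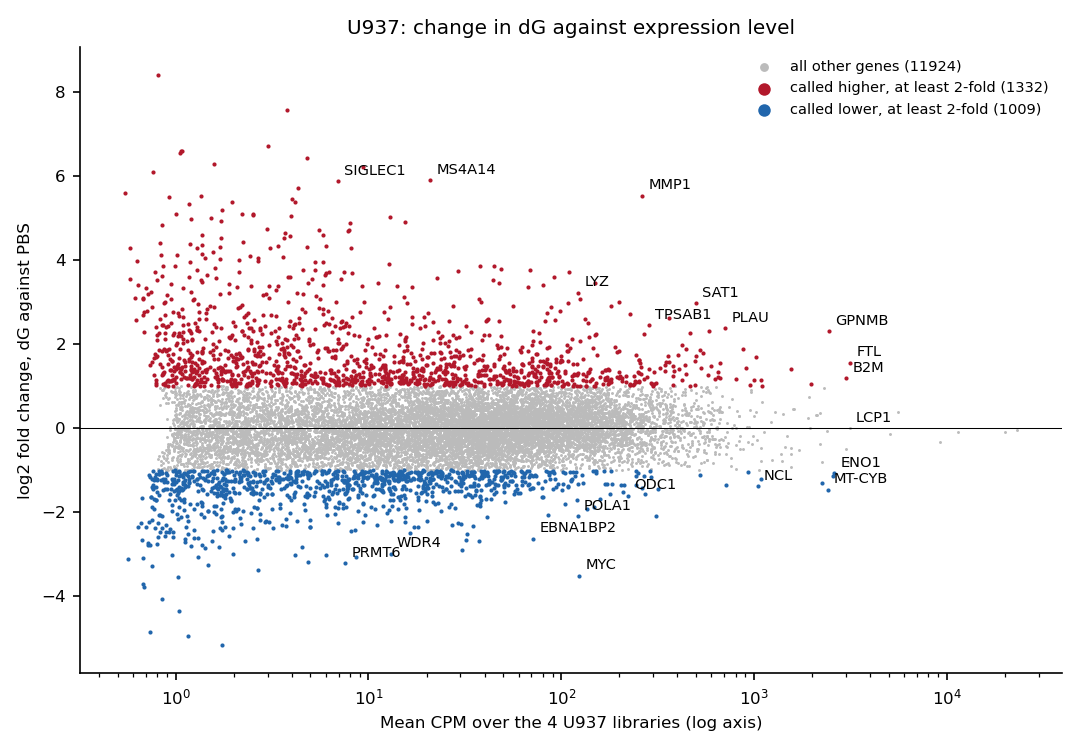
Log2 fold change of dG over PBS (vertical axis) against mean CPM over the 4 libraries (horizontal, log axis) for the 14265 genes; red points are the 1332 genes that rose at least 2-fold, blue points the 1009 that fell at least 2-fold, and grey points all others. The largest rises lie among genes of low level and extend farther from 0 than the falls.

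Abundant genes of the lysosome and of iron storage were among those that rose. GPNMB, a lysosomal glycoprotein of macrophages, was at 812 and 822 CPM in PBS and at 4136 and 3992 CPM in dG (log2 fold change 2.31 ± 0.03, SE; every later ± after a log2 fold change is also an SE). FTL, the ferritin light chain, went from 1596 and 1598 CPM to 4854 and 4576 CPM (1.56 ± 0.03). CTSD, a lysosomal protease, went from 856 and 826 CPM to 2270 and 2219 CPM (1.42 ± 0.03). In each of these genes the replicates lay close together and the groups far apart. Of all genes tested, the 1778 that rose at least 2-fold took 4.21% and 4.25% of the reads of the PBS libraries and 11.2% of the reads of each dG library, while the 1417 that fell at least 2-fold took 5.31% of each PBS library and 2.07% and 2.04% of the dG libraries. The direction of these shares is fixed by how the genes were chosen.

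**Figure D2:**
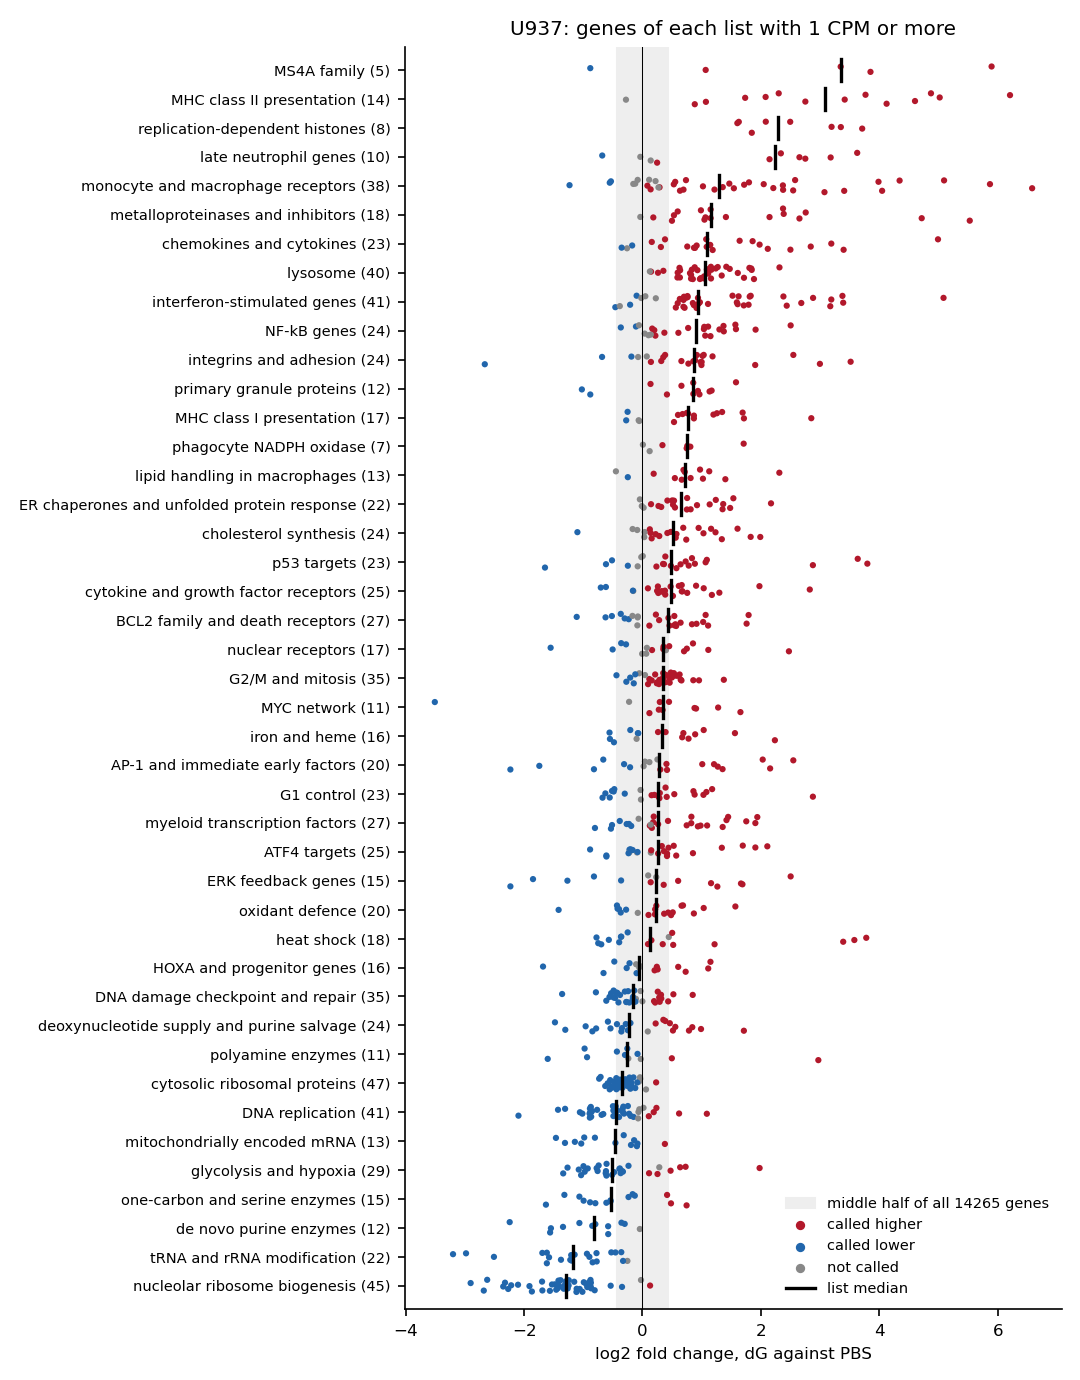
Log2 fold change of dG over PBS for the genes with 1 CPM in each gene list (red dots called higher, blue called lower, grey not called), with the list median (black bar) and the range between the quartiles of all 14265 genes (grey band, -0.42 to 0.43). The nucleolar and RNA-modification lists lie left of the band and the lysosome, MHC class II and matrix protease lists right of it.

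MYC itself stood at 228 and 226 CPM in PBS and at 20.8 and 19.1 CPM in dG, a log2 fold change of -3.51 ± 0.05 with an adjusted p of 2.33e-36 in edgeR's test. Of 13 genes of its dimer network, 11 had 1 CPM; MYC fell, 9 rose and MYCL was not called. MXD1, a repressor partner of MAX that accumulates in maturing myeloid cells, was at 17.9 and 18.1 CPM in PBS and 54.9 and 58.6 CPM in dG (1.65 ± 0.06). MXD4 rose by 1.28 ± 0.09 and MXD3 by 0.90 ± 0.09 on the log2 scale. MNT, another repressor partner, rose by 0.88 ± 0.07, and MAX itself by 0.45 ± 0.04. MYCL was at 3.54 and 4.26 CPM in PBS and 3.36 and 3.25 CPM in dG. For MYC, MAX, MNT and MXD1 the groups did not overlap.

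Genes for making ribosomes fell as a body. All 45 genes of the nucleolar list had 1 CPM, 43 fell and 32 of these fell at least 2-fold, with a median log2 fold change of -1.30 against -0.01 for all genes. Their summed level went from 7128 and 7059 CPM in PBS to 3174 and 3142 CPM in dG. GPATCH4, a nucleolar protein of ribosomal RNA processing, stood at 54.2 and 54.0 CPM in PBS and 7.02 and 7.47 CPM in dG (-2.90 ± 0.08). UTP20, of the complex that processes the small subunit precursor, stood at 71.3 and 58.5 CPM in PBS and 9.65 and 10.8 CPM in dG (-2.68 ± 0.08). For EBNA1BP2, a large-subunit assembly factor, the values were 124 and 122 CPM in PBS and 20.9 and 19.1 CPM in dG (-2.62 ± 0.05). Both PBS libraries were far above both dG libraries for all 3. Abundant nucleolar proteins fell less in ratio: NCL, nucleolin, by 1.38 ± 0.03 and NPM1, nucleophosmin, by 0.87 ± 0.03 on the log2 scale. Subunits of RNA polymerase I fell too, POLR1A by 1.53 ± 0.05 and POLR1B by 1.42 ± 0.05. GNL3 was not called, at 231 and 234 CPM in PBS and 230 and 228 CPM in dG. RRN3, an initiation factor of RNA polymerase I, was called higher by 0.13 ± 0.05, a call that ended without PBS replicate 2 (adjusted p 0.128 in edgeR's test) and with library size alone as the scaling (0.05, adjusted p 0.305).

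Enzymes that modify transfer and ribosomal RNA, and the arginine methyltransferases grouped with them, went down in the same samples, 21 of 22 genes with a median of -1.17 and no rise. PRMT6 was the 1 gene of the 22 that passed 1 CPM only through the PBS libraries. WDR4, the partner of the METTL1 tRNA methyltransferase, was at 22 and 24.3 CPM in PBS and 2.76 and 3.10 CPM in dG (-2.98 ± 0.12). METTL1 itself was not called, at 6.37 and 6.69 CPM in PBS and 4.65 and 6.35 CPM in dG, and without dG replicate 2 it was called lower (log2 fold change -0.42, adjusted p 0.0300 in edgeR's test). PUS7, a pseudouridine synthase, was at 53.6 and 57.4 CPM in PBS and 10.5 and 8.92 CPM in dG (-2.51 ± 0.07). The log2 fold change was -3.2 ± 0.15 for PRMT6, -1.62 ± 0.06 for PRMT3, -1.22 ± 0.04 for PRMT1 and -1.2 ± 0.05 for PRMT5. LCMT2, which acts in wybutosine formation in tRNA, was at 13.3 and 14 CPM in PBS and 2.37 and 2.67 CPM in dG.

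Since MYC and the MXD proteins bind the E-box with MAX, the letters CACGTG (a palindrome, so both strands read alike) were searched in RefSeq promoters of build GRCh38.p14, from 250 bases before to 50 after the start. The motif lies in 7.26% of 35116 promoters in that table, and in 10.4% of the 9080 that belong to genes with 1 CPM. The rest of the 14265 genes with 1 CPM have no promoter there, so this share describes only the matched part. Among the nucleolar genes with a promoter in it, 17 of 38 hold it (44.7%), and 5 of 19 of the modification list do (26.3%). For comparison, the share was 14.7% of 34 DNA replication genes, which mostly fell, and 17.2% of 29 mitotic genes, which mostly rose. A match describes these letters only and does not show binding. Of the 15 genes with the largest falls by the naming rule, 5 hold the motif, 5 have a promoter without it (PRMT6, UACA, WDR4, GPATCH4 and LCMT2) and 5 have no promoter in the table. The 30-base windows below, the motif in capitals, come from 4 of those 5 holders and from 4 others of the nucleolar list, picked after their values were seen to show the flanks. They lie at chr10:25016566-25016595 (THNSL1, + strand), chr12:101280083-101280112 (UTP20, + strand), chr1:43172790-43172819 (EBNA1BP2, - strand), chr7:105522226-105522255 (PUS7, - strand), chr1:19251807-19251836 (MRTO4, + strand), chr6:41921515-41921544 (BYSL, + strand), chr6:143843354-143843383 (LTV1, + strand) and chr19:39846356-39846385 (FBL, - strand). In the first 3 windows the motif begins upstream of the RefSeq start and in the other 5 at or after it. By the gene coordinates deposited with the counts, the EBNA1BP2 window lies within that gene. The UTP20 window reaches only the first bases of UTP20 in those coordinates, and its motif lies before them.
THNSL1: agaaaggagagtCACGTGccctgcgcgagg
UTP20: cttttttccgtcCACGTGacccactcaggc
EBNA1BP2: gatattgttggcCACGTGggatcgaagacc
PUS7: gtcgctgcgccgCACGTGtgcgagcccggc
MRTO4: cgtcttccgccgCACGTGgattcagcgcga
BYSL: ttcttcagtcccCACGTGcgatccttcccg
LTV1: gtcctggggctgCACGTGtggtgaggccta
FBL: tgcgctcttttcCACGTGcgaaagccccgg

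All 8 of these genes fell, which the choice of windows from genes called lower had fixed in advance. The log2 fold changes were -2.10 ± 0.06 for MRTO4, -1.91 ± 0.05 for BYSL, -1.70 ± 0.06 for LTV1 and -1.69 ± 0.04 for FBL, the ribosomal RNA methyltransferase fibrillarin. THNSL1 was at 10.7 and 10.6 CPM in PBS and 1.08 and 1.6 CPM in dG. The flanks differ from gene to gene, and the windows share no more than the motif by the way they were picked. EBNA1BP2 lies opposite CFAP57, the THNSL1 window overlaps ENKUR, and without a stated strand setting the reads of overlapping genes cannot be separated.

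Polyamine metabolism changed at its synthetic and its catabolic end. ODC1, ornithine decarboxylase, the first enzyme of the pathway, was at 333 and 336 CPM in PBS and 115 and 106 CPM in dG (-1.6 ± 0.04). SAT1, the acetyltransferase that starts polyamine breakdown and export, was at 111 and 114 CPM in PBS and 891 and 871 CPM in dG (2.97 ± 0.03). Neither gene's groups overlapped. SRM, spermidine synthase, fell by 0.94 ± 0.05 and AMD1, which makes the aminopropyl donor, by 0.43 ± 0.04 on the log2 scale, whereas AZIN1, the antizyme inhibitor, rose by 0.50 ± 0.03. Of 11 list genes with 1 CPM, 7 fell and 2 rose. SMS, spermine synthase, was not called, at 218 and 220 CPM in PBS and 215 and 214 CPM in dG.

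Of 12 enzymes of purine synthesis, 11 fell and none rose, with a median of -0.82. PFAS was at 46.5 and 49.3 CPM in PBS and 10.3 and 9.89 CPM in dG (-2.24 ± 0.07). The log2 fold change was -1.56 ± 0.03 for PAICS, -1.55 ± 0.05 for ADSL and -1.34 ± 0.04 for IMPDH2, which opens the branch to guanine nucleotides. IMPDH1, the other isoform, was not called, at 54.5 and 57.8 CPM in PBS and 53.3 and 55.6 CPM in dG. The folate enzymes that feed this pathway followed in part: MTHFD1L (-1.63 ± 0.05) and MTHFD1 (-1.32 ± 0.04) fell, while their mitochondrial neighbour MTHFD2 rose by 0.42 ± 0.03 and MAT2A, which makes S-adenosylmethionine, by 0.74 ± 0.04. Of 15 one-carbon and serine genes, 12 fell and 3 rose.

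Genes that handle deoxynucleosides split. Of 24 with 1 CPM, 10 rose and 13 fell. RRM2, the cell-cycle regulated subunit of ribonucleotide reductase, was at 548 and 561 CPM in PBS and 768 and 759 CPM in dG (0.46 ± 0.03), and RRM2B, its p53-regulated alternative, rose by 0.39 ± 0.05. RRM1, the large subunit that carries the allosteric sites, went the other way, from 327 in both PBS libraries to 225 and 212 CPM in dG (-0.58 ± 0.03). In none of these subunits did the groups overlap. Among salvage genes, DCK, a kinase that accepts deoxyguanosine, rose by 0.35 ± 0.04 and TK2, the mitochondrial thymidine kinase, by 0.84 ± 0.09, while DGUOK, the mitochondrial deoxyguanosine kinase, was at 51.8 and 55.4 CPM in PBS and 58.2 and 55.5 CPM in dG and was not called; without dG replicate 2 it was called higher (0.19, adjusted p 0.0172 in edgeR's test). PNP, the phosphorylase that splits deoxyguanosine to guanine, fell by 0.28 ± 0.05, and HPRT1, which salvages guanine, by 0.85 ± 0.04. SAMHD1, which hydrolyses deoxynucleoside triphosphates, rose by 0.79 ± 0.10 from 7.71 and 9.52 CPM to 14.7 CPM in each dG library. SLC29A3, a nucleoside transporter of lysosomes, showed the largest rise of the list at 1.71 ± 0.08, and SLC29A1, the main plasma membrane transporter, fell by 0.36 ± 0.04.

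Replication and mitosis genes went in opposite directions. Of 41 replication genes, 32 fell and 5 rose, with a median of -0.45. POLA1, the catalytic subunit of the primase-polymerase, had the largest fall of the list, at 199 and 195 CPM in PBS and 45.3 and 46.9 CPM in dG (-2.09 ± 0.04), and its accessory subunit POLA2 rose by 0.24 ± 0.05. The helicase subunits MCM2 to MCM7 fell by 0.77 to 1.06 on the log2 scale. Of 35 mitotic genes, 28 rose and 5 fell, with a median of 0.35. CDC25B, a phosphatase that starts mitosis, was at 93.3 and 95.2 CPM in PBS and 243 and 245 CPM in dG (1.37 ± 0.04). Most rises in this list were small: MKI67 rose by 0.34 ± 0.03, TOP2A by 0.39 ± 0.03 and CDK1 by 0.66 ± 0.03. PLK1 and CDC20 fell by 0.27 ± 0.04 and 0.21 ± 0.04, and FOXM1 was not called, at 125 and 123 CPM in PBS and 128 and 127 CPM in dG.

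Inhibitors of the cyclin-dependent kinases rose together with some cyclins. CDKN1B, p27, was at 150 and 149 CPM in PBS and 310 and 301 CPM in dG (1.03 ± 0.04). CDKN2D, p19, rose by 1.18 ± 0.08, CDKN2B by 1.08 ± 0.20, CDKN1C by 0.54 ± 0.12 and CDKN2C by 0.29 ± 0.05, and CDKN1A, p21, by 2.88 ± 0.12 from about 3 CPM. CDKN2A was not called, at 54.8 and 57.3 CPM in PBS and 54.0 and 55.6 CPM in dG. On the opposing side, CDK4 fell by 0.52 ± 0.04, CDK6 by 0.48 ± 0.05 and CCND2 by 0.55 ± 0.05, whereas CCND3 rose by 0.39 ± 0.04 and CCNE2 by 0.88 ± 0.05. In all, 14 of 23 genes of the G1 list rose and 7 fell.

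Transcripts of 8 histone genes had 1 CPM, and all 8 rose, but 6 of them passed that level only through the dG libraries and 10 of the 18 listed did not pass. HIST1H2AC was at 1.03 and 0.677 CPM in PBS and 10.6 and 12.5 CPM in dG (3.71 ± 0.18). HIST1H1C, a linker histone, was at 2.88 and 2.55 CPM in PBS and 10.3 and 9.31 CPM in dG (1.85 ± 0.14). Both dG libraries exceeded both PBS libraries in each. Among the genes below 1 CPM, HIST2H2AC went the other way, with 21 and 15 counts in PBS and 2 and 3 in dG. Replication-dependent histone mRNAs mostly end without a poly(A) tail, the libraries were poly(A)-selected, and near-identical copies can share reads. The part of tailing in these values was not tested.

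Of 23 p53 target genes with 1 CPM, 16 rose and 4 fell (median 0.48). GDF15 and TP53INP1 passed 1 CPM only through dG, so these 2 of the 23 had to be higher in dG. GDF15, a secreted stress factor, had 0.251 and 0.159 CPM in PBS and 2.89 and 3.10 CPM in dG (3.80 ± 0.33), and TP53INP1 rose by 3.64 ± 0.35 from the same low level. BBC3, the death effector PUMA, rose by 1.07 ± 0.10, and ZMAT3, an RNA-binding target of p53, by 1.09 ± 0.11. MDM2, the feedback inhibitor of p53, was not called, at 49.5 and 48.2 CPM in PBS and 48.6 and 49.5 CPM in dG. BAX was not called either, at 29.3 and 29.2 CPM in PBS and 27.5 and 27.8 CPM in dG. AEN, a p53-induced nuclease, fell by 1.65 ± 0.09. The DNA damage and repair list leaned down, with 22 of 35 genes lower and 10 higher. XRCC2 fell by 1.36 ± 0.06, BRCA1 by 0.79 ± 0.04 and ATR by 0.56 ± 0.07, and RAD9A, of the checkpoint clamp, rose by 0.85 ± 0.08.

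Death and survival genes rose side by side, 17 of 27 higher and 6 lower. BCL2A1, a survival protein of myeloid cells, was at 244 and 245 CPM in PBS and 863 and 828 CPM in dG (1.79 ± 0.03). BMF, a BH3-only death factor, was at 22.8 and 23.3 CPM in PBS and 76.6 and 79.4 CPM in dG (1.76 ± 0.06). CFLAR, which blocks caspase-8, rose by 0.91 ± 0.04, TNFRSF10B, a receptor for TRAIL, by 0.64 ± 0.05 and TNFSF10, TRAIL itself, by 1.02 ± 0.11. BCL2 fell by 0.37 ± 0.06 and MCL1 rose by 0.23 ± 0.04.

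**Figure D3:**
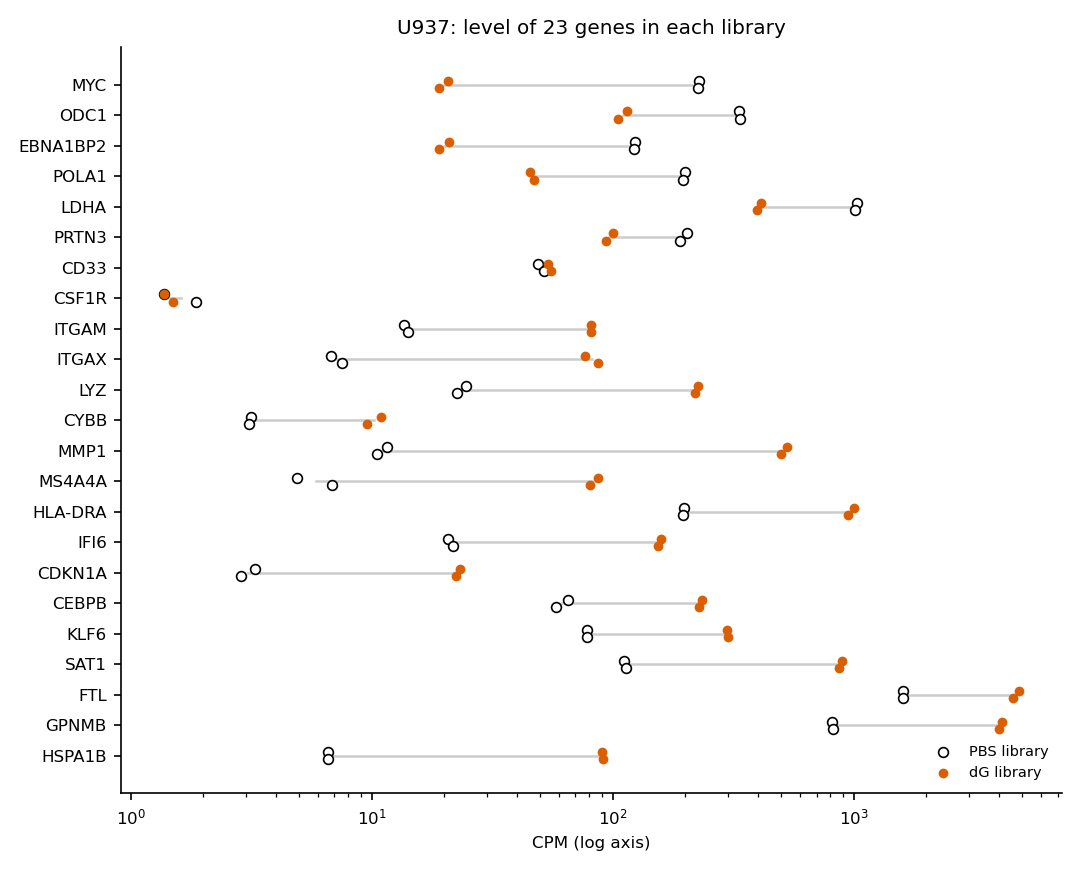
CPM of 23 genes in each library on a log axis, open circles for the 2 PBS libraries and orange circles for the 2 dG libraries, with a line joining the group means. The 2 libraries of a group lie close together beside the distance between groups, except for CD33, where the groups lie near each other, and CSF1R, where they overlap.

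MHC class II genes were mostly higher, with a median log2 fold change of 3.08. Of 15 listed genes, 14 had 1 CPM, 5 of them only through the dG libraries, and 13 rose. CD74, the invariant chain, was at 187 and 184 CPM in PBS and 632 and 601 CPM in dG (1.73 ± 0.03). The peptide exchange factor HLA-DMA was at 13.5 and 14.2 CPM in PBS and 146 and 148 CPM in dG (3.42 ± 0.06), and HLA-DMB rose by 3.77 ± 0.07. CIITA, the coactivator of the whole set, rose less, from 62.9 and 62.5 CPM to 108 and 124 CPM (0.88 ± 0.05). HLA-DQA1 had 0.345 and 0.12 CPM in PBS and 18.6 and 18.4 CPM in dG. HLA-DPA1 and HLA-DPB1 overlap each other and the HLA-DR genes share sequence, so their separate values are uncertain. HLA-DOB, an inhibitor of peptide exchange, was not called, at 2.82 and 2.27 CPM in PBS and 2.28 and 1.94 CPM in dG.

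Of 17 genes of class I presentation, 1 of which passed 1 CPM only through dG, 13 rose and 2 fell, with a median of 0.77. HLA-B was at 483 and 488 CPM in PBS and 1614 and 1522 CPM in dG (1.69 ± 0.03). B2M, the shared light chain, rose by 1.2 ± 0.03. NLRC5, the class I coactivator, was not called, at 29.2 and 30.2 CPM in PBS and 28.6 CPM in each dG library. The 2 subunits of the peptide transporter parted: TAP1 rose by 0.87 ± 0.05 and TAP2 fell by 0.28 ± 0.06.

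Receptors of monocytes and macrophages were mostly higher, but several defining ones stayed near 0. Of 56 listed, 38 had 1 CPM, 9 of them only through dG, and 29 rose while 3 fell. TREM1, an amplifying receptor of monocytes, was at 11.7 and 12.1 CPM in PBS and 72.2 and 66.3 CPM in dG (2.54 ± 0.07). FCER1G, the signalling chain of Fc receptors, was at 29.9 and 30.3 CPM in PBS and 129 and 120 CPM in dG (2.05 ± 0.05). MERTK, a receptor for dying cells, was at 26.8 and 27.8 CPM in PBS and 80.4 and 78.4 CPM in dG (1.54 ± 0.06). All 3 were higher in both dG libraries. The complement receptor C5AR1 rose by 4.34 ± 0.19 and the chemokine receptor CCR1 by 2.21 ± 0.06, and LY96, the partner of TLR4, by 5.09 ± 0.36 from 7 and 0 counts. LILRB4 had 0 and 1 counts in PBS and 57 and 37 in dG. CD14 held 1 or 2 counts in every library, CD163 0 or 1, MRC1 none in any, and FCGR3A none in any. CSF1R was not called, at 1.38 and 1.87 CPM in PBS and 1.38 and 1.5 CPM in dG, and TLR4 was not called, at 60.4 and 56.5 CPM in PBS and 57.6 and 53 CPM in dG. LILRB1 fell by 1.23 ± 0.20 and CLEC12A, a marker of early myeloid cells, by 0.55 ± 0.05.

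Among integrins and adhesion genes, 19 of 24 with 1 CPM rose and 3 fell, and 1 of the 24 passed only through dG. ITGB2, the shared beta chain of leukocyte integrins, was at 737 and 724 CPM in PBS and 1492 and 1462 CPM in dG (1.01 ± 0.03). Its partners ITGAL, ITGAM and ITGAX rose by 1.00 ± 0.04, 2.55 ± 0.06 and 3.52 ± 0.08, so the alpha chains changed by unequal amounts. CD82, a tetraspanin, rose by 1.90 ± 0.07. FERMT1, a kindlin typical of epithelia, was at 54.8 and 55.8 CPM in PBS and 8.53 and 8.92 CPM in dG (-2.66 ± 0.08), while FERMT3, the kindlin of blood cells, was not called, at 99.5 and 96.3 CPM in PBS and 105 and 101 CPM in dG, but was called higher without dG replicate 2 (0.16, adjusted p 0.0184 in edgeR's test).

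Granule proteins of the neutrophil and monocyte lineage did not move as one. CTSG, cathepsin G, was at 499 and 498 CPM in PBS and 1147 and 1093 CPM in dG (1.17 ± 0.03), and AZU1, azurocidin, rose by 1.13 ± 0.04. PRTN3, proteinase 3, was at 203 and 191 CPM in PBS and 99.8 and 93.8 CPM in dG (-1.02 ± 0.04). These genes are usually expressed together in promyelocytes, and here 10 of 12 with 1 CPM, 1 of them only through dG, rose and 2 fell. MS4A3, a marker of the granulocyte-monocyte progenitor, fell by 0.88 ± 0.14. Of 19 later neutrophil genes, 10 had 1 CPM, 3 of them only through dG, and 7 rose while 1 fell. Among them, BPI was at 5.08 and 5.46 CPM in PBS and 37.0 and 33.6 CPM in dG (2.75 ± 0.10), and CAMP, cathelicidin, rose by 3.18 ± 0.24. S100A9 fell by 0.68 ± 0.10 and S100A8 held 4 to 13 counts per library. LYZ, lysozyme, was at 24.7 and 22.7 CPM in PBS and 225 and 218 CPM in dG (3.22 ± 0.05). Of the NADPH oxidase, CYBB, the catalytic subunit, rose by 1.71 ± 0.14 from about 3 CPM, and NCF4 by 0.76 ± 0.04, with RAC1 not called. CYBA was not called either, at a log2 fold change that reached 0.29 without dG replicate 2 (adjusted p 0.000667 in edgeR's test).

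Of 40 lysosomal genes with 1 CPM, 39 rose and none fell, with a median of 1.06. Their summed level went from 9176 and 9144 CPM to 22140 and 21600 CPM. NPC1, the cholesterol exporter of the lysosome, was at 189 in both PBS libraries and 690 and 704 CPM in dG (1.88 ± 0.03). GRN, progranulin, was at 232 and 233 CPM in PBS and 774 and 751 CPM in dG (1.71 ± 0.04). GLB1, beta-galactosidase, was at 244 and 242 CPM in PBS and 761 and 721 CPM in dG (1.61 ± 0.03). The groups were well apart for all 3. The transcription factors that drive lysosomal genes rose too, MITF by 1.81 ± 0.08, TFEB by 1.09 ± 0.04 and TFE3 by 0.93 ± 0.05. Proton pump subunits followed, ATP6AP1 by 1.47 ± 0.04 and ATP6V1A by 0.82 ± 0.04. MCOLN1, a lysosomal calcium channel, was not called, at 4.33 and 4.70 CPM in PBS and 5.21 and 4.56 CPM in dG.

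The MS4A genes of macrophages rose from low levels. Of 5 MS4A genes with 1 CPM, 4 rose and 1 fell, and 2 of the 5, MS4A14 among them, passed only through dG. MS4A7 was at 11.8 and 12.3 CPM in PBS and 124 and 121 CPM in dG (3.35 ± 0.06). MS4A4A was at 4.92 and 6.85 CPM in PBS and 86.6 and 80.5 CPM in dG (3.85 ± 0.09), and MS4A14 rose by 5.90 ± 0.14, although it shares 17422 bases on 1 strand with MS4A7. Of matrix proteases and their regulators, 17 of 18 with 1 CPM rose and none fell, and 3 of the 18 passed only through dG. MMP1, interstitial collagenase, was at 11.6 and 10.6 CPM in PBS and 527 and 499 CPM in dG. PLAU, urokinase, was at 223 and 231 CPM in PBS and 1195 and 1175 CPM in dG (2.39 ± 0.04), and its receptor PLAUR rose by 1.41 ± 0.05. MMP25 was not called, at 43.5 and 46.7 CPM in PBS and 43.5 and 44.3 CPM in dG, and MMP12 held 0 or 1 counts.

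Among secreted factors, VEGFA, the endothelial growth factor, was at 171 and 172 CPM in PBS and 675 and 678 CPM in dG (1.98 ± 0.03). Inflammatory cytokines rose from low levels: IL1B was at 1.00 and 1.23 CPM in PBS and 8.44 and 7.42 CPM in dG (2.84 ± 0.16), and CXCL8 rose by 2.12 ± 0.17. IL6 held 1 count in a single library. TNFSF13B, the B cell factor BAFF, fell by 0.35 ± 0.03. Of 23 factors with 1 CPM, 4 of them only through dG, 20 rose and 2 fell. Receptors for cytokines rose in 21 of 25 cases, 2 of the 25 having passed 1 CPM only through dG. CXCR4 rose from 624 and 628 CPM to 1305 and 1259 CPM (1.03 ± 0.03), while TNFRSF1A, the main TNF receptor, fell by 0.70 ± 0.04.

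Genes of the NF-kB list rose in 18 of 24 cases, 2 fell and 4 were not called. TNFAIP3, the feedback inhibitor A20, was at 49.2 and 49.99 CPM in PBS and 150 and 147 CPM in dG (1.58 ± 0.04), and NFKBIA, the inhibitor IkB alpha, rose by 1.37 ± 0.06. NFKB2 and RELB, of the alternative branch, rose by 1.04 ± 0.06 and 1.06 ± 0.10, while RELA rose by 0.37 ± 0.05. PTGS2 was not called, at 1.22 and 0.876 CPM in PBS and 0.948 and 1.11 CPM in dG. Interferon-stimulated genes rose in 34 of 41 cases and 3 fell, and 6 of the 41 passed 1 CPM only through dG. IFI6 was at 20.7 and 21.8 CPM in PBS and 158 and 154 CPM in dG (2.88 ± 0.05). OAS1 rose by 2.38 ± 0.09, IRF7 by 2.44 ± 0.14 and STAT2 by 1.61 ± 0.05. The response was uneven: ISG15, usually one of the most inducible genes of this class, rose by 0.56 ± 0.14, MX1 was not called, at 2.63 and 3.27 CPM in PBS and 1.98 and 2.52 CPM in dG, and IFITM2 fell by 0.46 ± 0.05. Without PBS replicate 1, MX1 was called lower (-0.55, adjusted p 0.0363 in edgeR's test).

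Of 27 myeloid transcription factors with 1 CPM, 18 rose and 7 fell, and of 20 AP-1 and immediate early factors 10 rose and 6 fell. In the AP-1 list, 1 of the 20 passed 1 CPM only through the PBS libraries. CEBPB, a factor of macrophage maturation, was at 65.2 and 58.1 CPM in PBS and 235 and 228 CPM in dG (1.91 ± 0.05). KLF6 was at 78.2 and 77.8 CPM in PBS and 299 and 300 CPM in dG (1.94 ± 0.04), and BHLHE40 and BHLHE41 rose by 1.35 ± 0.03 and 1.75 ± 0.05. The lineage factors already high in this line moved little: CEBPA rose by 0.16 ± 0.04 and IRF8 by 0.12 ± 0.04, SPI1, PU.1, fell by 0.19 ± 0.06, and MYB fell by 0.27 ± 0.03. With library size alone as the scaling, CEBPA (0.08, adjusted p 0.0505) and IRF8 (0.05, adjusted p 0.205) were not called. The call of SPI1 ended without dG replicate 2 (-0.06, adjusted p 0.469 in edgeR's test). The small MAF factors MAFF and MAFG rose by 2.16 ± 0.08 and 1.35 ± 0.05, and MAFK fell by 0.66 ± 0.11. Of the immediate early factors, ATF3 rose by 2.03 ± 0.14, and FOSL1 and BATF3 fell by 2.23 ± 0.26 and 1.74 ± 0.13.

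Genes of the feedback on ERK signalling divided. ETV4 and ETV5, whose expression follows ERK activity, fell by 1.85 ± 0.11 and 1.27 ± 0.06, and DUSP6, a phosphatase of ERK, fell by 0.36 ± 0.06 from 38.3 and 36.5 CPM to 28.3 and 30.1 CPM. DUSP4 was at 33.7 and 33.8 CPM in PBS and 105 and 109 CPM in dG (1.66 ± 0.05), and DUSP1 rose by 1.69 ± 0.15. Among nuclear receptors, NR1D1, the clock repressor REV-ERB alpha, was at 5.14 CPM in both PBS libraries and 28.1 and 29 CPM in dG (2.47 ± 0.09), and PPARG, a lipid sensor of macrophages, rose by 1.11 ± 0.06. VDR, the vitamin D receptor, fell by 0.50 ± 0.08. HOXA genes kept mixed signs, with HOXA9 up by 0.73 ± 0.04, HOXA7 down (-0.66 ± 0.18) and MEIS1 not called, at 154 and 153 CPM in PBS and 149 and 147 CPM in dG. Over the HOXA and progenitor list 7 of 16 rose and 6 fell, and the sign of its median depended on the scaling.

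Cholesterol synthesis and lipid handling rose together. Of 24 synthesis genes, 19 rose and 1 fell. HMGCS1, an early enzyme of the pathway, was at 53.7 and 53.5 CPM in PBS and 164 and 162 CPM in dG (1.61 ± 0.04). SREBF2, the factor that governs the pathway, rose by 0.14 ± 0.04, a call that ended without PBS replicate 2 (0.09, adjusted p 0.0696 in edgeR's test) or when scaled by library size alone (0.06, adjusted p 0.128). The lone fall was PMVK (-1.10 ± 0.07). PLIN2, the coat protein of lipid droplets, was at 224 and 225 CPM in PBS and 600 and 584 CPM in dG (1.40 ± 0.03). ABCA1 and ABCG1, the cholesterol exporters that answer to LXR, held 2 to 15 counts per library, and MYLIP, another LXR target, rose by 1.13 ± 0.04.

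Of 18 heat shock genes with 1 CPM, 1 of them only through dG, 9 rose and 8 fell (median 0.12). HSP90AB1, a constitutive cytosolic chaperone, was at 1755 and 1768 CPM in PBS and 1033 and 1023 CPM in dG (-0.78 ± 0.03), HSPD1, a mitochondrial one, fell by 0.75 ± 0.03 and HSPA8 by 0.57 ± 0.03. HSPA1B, an inducible HSP70, was at 6.59 and 6.61 CPM in PBS and 90.0 and 91.4 CPM in dG (3.78 ± 0.07), HSPA1A rose by 3.58 ± 0.10 and HSPA6 by 3.39 ± 0.23. HSPA1A and HSPA1B are near-identical, so reads may have been split between them. In the endoplasmic reticulum 19 of 22 chaperones and stress genes rose and none fell. HSPA5, the master chaperone BiP, was at 315 and 314 CPM in PBS and 892 and 864 CPM in dG (1.48 ± 0.03), DNAJB9 rose by 2.17 ± 0.07 and the sensor ERN1 by 1.54 ± 0.07. DDIT3, the stress factor CHOP, was at 15.1 and 14 CPM in PBS and 64.6 and 61.1 CPM in dG (2.11 ± 0.07). Over the 25 genes of the ATF4 target list with 1 CPM, 14 rose (56%) and 8 fell (32%), with a median of 0.26. Some well-known targets were among those that did not rise. ASNS was not called, at 39.0 and 41.0 CPM in PBS and 38.3 and 36.6 CPM in dG. SLC7A5 fell by 0.61 ± 0.04, and CHAC1 was not called, at 24 to 49 counts per library.

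In the glycolysis and hypoxia list 22 of 29 genes fell. ENO1 was at 3504 and 3531 CPM in PBS and 1702 and 1634 CPM in dG (-1.08 ± 0.03), and LDHA fell by 1.34 ± 0.03. HIF1A, the oxygen-regulated factor that acts on many of these enzymes, rose by 0.64 ± 0.04. Of 16 iron and heme genes, 9 rose and 6 fell. FTH1, the ferritin heavy chain, was at 95.9 and 91.4 CPM in PBS and 464 and 419 CPM in dG (2.24 ± 0.05), and TFRC, the transferrin receptor, was at 220 and 219 CPM in PBS and 157 CPM in each dG library (-0.48 ± 0.03). HMOX1, heme oxygenase, rose by 1.03 ± 0.14 from about 4 CPM. Of 20 oxidant defence genes, 13 rose and 6 fell. SOD2, in mitochondria, rose by 1.57 ± 0.03 and SOD1, in the cytosol, fell by 0.43 ± 0.04.

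Messages of the mitochondrial genome differed among themselves, although they are cut from shared precursors. MT-CYB was at 3494 and 3562 CPM in PBS and 1308 and 1253 CPM in dG (-1.46 ± 0.03), and MT-ND1 was at 3230 and 3210 CPM in PBS and 1310 and 1289 CPM in dG (-1.31 ± 0.03). MT-ND5 was at 4790 and 4914 CPM in PBS and 6345 and 6270 CPM in dG (0.38 ± 0.03). Of the 13 messages, 12 were called lower and MT-ND5 alone higher, and this holds only for the larger falls: MT-ND4 (-0.09 ± 0.03) lost its call without either dG replicate, with values of -0.06 (adjusted p 0.0917) without replicate 1 and -0.01 (adjusted p 0.920) without replicate 2 in edgeR's test. MT-CO1, at -0.09 ± 0.03, lost its call without dG replicate 1 (-0.06, adjusted p 0.0713), was at 0.01 without dG replicate 2 and also turned positive with DESeq2 size factors, and MT-CO2, at -0.14 ± 0.03, lost its call without it (-0.04, adjusted p 0.275). The ribosomal RNA MT-RNR2 was not called, at 23541 and 23487 CPM in PBS and 23323 and 22262 CPM in dG. All mitochondrial genes together took 9.77% and 9.83% of the reads in PBS and 8.18% and 7.93% in dG, so the groups did not overlap. With 2 libraries against 2, an exact two-sided permutation test on such a share cannot go below 0.33.

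**Figure D4:**
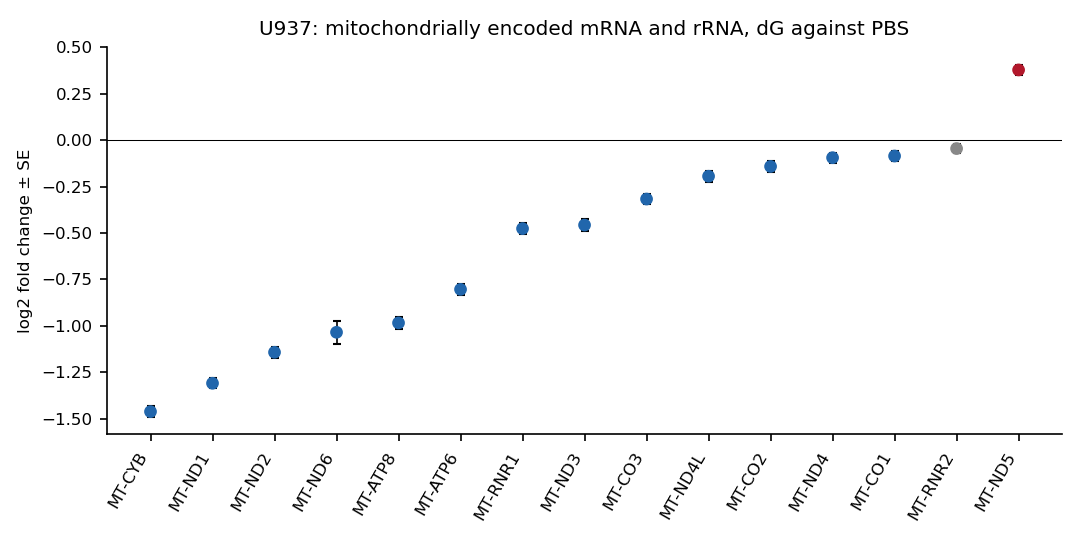
Log2 fold change of dG over PBS with its standard error for the 13 mitochondrially encoded mRNAs and the 2 mitochondrial ribosomal RNAs (blue called lower, red called higher, grey not called). Values run from -1.46 for MT-CYB to 0.38 for MT-ND5, with MT-CO1, MT-CO2, MT-ND4 and MT-RNR2 near 0.

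Genes often used as references were not stable here. Of 16, 10 were called lower and 5 higher. ACTB, beta-actin, was at 2888 and 2836 CPM in PBS and 1668 and 1618 CPM in dG (-0.80 ± 0.03), GAPDH fell by 0.92 ± 0.03, and B2M and GUSB rose. TBP was not called, at 34.1 and 36.6 CPM in PBS and 33.2 and 32.3 CPM in dG. The list of cytosolic ribosomal protein genes held 47, a part of the 86 found by symbol. Of these 47, 42 fell, and the median of -0.35 was far smaller in size than that of the nucleolar genes. RPS20 was the 1 of the 47 that rose (0.23 ± 0.03).

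Most markers of other lineages were below 1 CPM. Of 22 erythroid and megakaryocyte markers 20 were below 1 CPM, of 21 lymphoid markers 13, of 16 dendritic markers 11, of 10 mast cell markers 7 and of 13 fibroblast and epithelial markers 12. CD3E, CD8A, GATA1, HBB and EPCAM had no count in any library. Of the 8 lymphoid markers with 1 CPM, 3 rose and 3 fell. Of the 5 dendritic markers with 1 CPM, 2 rose and 3 fell, and of the 3 mast cell markers 2 rose and none fell. In each of these lists, 1 gene passed 1 CPM only through dG. Some single markers were well expressed. NKG7, a granule protein of natural killer cells, was at 124 and 121 CPM in PBS and 217 and 209 CPM in dG (0.80 ± 0.04), and FSCN1, fascin, at 37.5 and 34.5 CPM in PBS and 52.6 and 49.5 CPM in dG. TPSAB1, mast cell tryptase, was at 87.3 and 87.4 CPM in PBS and 486 and 472 CPM in dG (2.46 ± 0.04), beside a near-identical copy, TPSB2, while the defining mast cell genes CPA3 and FCER1A held 0 to 3 counts.

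Some genes were near 0 in 1 group, and for them counts are given in place of a fitted fold. AHNAK2, a large scaffold protein, had 2 counts over both PBS libraries and 331 over both dG libraries, a ratio per library size of 215 with a 95% counting interval of 59.1 to 1784. APOL1, an apolipoprotein, had 3 and 263 counts (ratio 114, interval 38.6 to 556), and CD209, a lectin of macrophages and dendritic cells, had 3 and 101 (ratio 43.8, interval 14.6 to 216). In the other direction TTC30A, a cilium protein, had 127 counts in PBS and 3 in dG (ratio 32.6, interval 10.9 to 160). Called genes with 3 or fewer counts in 1 group numbered 129 for PBS and 84 for dG. At the other end, the most abundant genes not called, beside MT-RNR2, included RHOA, a small GTPase, at 925 and 942 CPM in PBS and 969 and 921 CPM in dG, and STMN1, stathmin, at 898 and 917 CPM in PBS and 939 and 907 CPM in dG. Without dG replicate 2 both were called higher, by 0.12 each on the log2 scale.

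Direction also went with the kind and size of a gene. Of 11231 protein-coding genes 42.5% rose and 37.3% fell, and of 1984 pseudogenes 16.6% rose and 41.1% fell. Among protein-coding genes split into 5 equal groups by exon length, the share that rose went from 35.8% in the shortest to 50.9% in the longest, and the share that fell from 43.3% to 30.1%. For gene span the shares that rose went from 35.8% to 46.5%. Families sorted by symbol differed: of 48 MRPL genes of the mitochondrial ribosome 38 fell and 5 rose, while of 56 RAB genes of vesicle traffic 37 rose and 7 fell, and of 23 SEC genes of secretion 19 rose and 1 fell. These families were picked after their counts were seen.

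**Figure D5:**
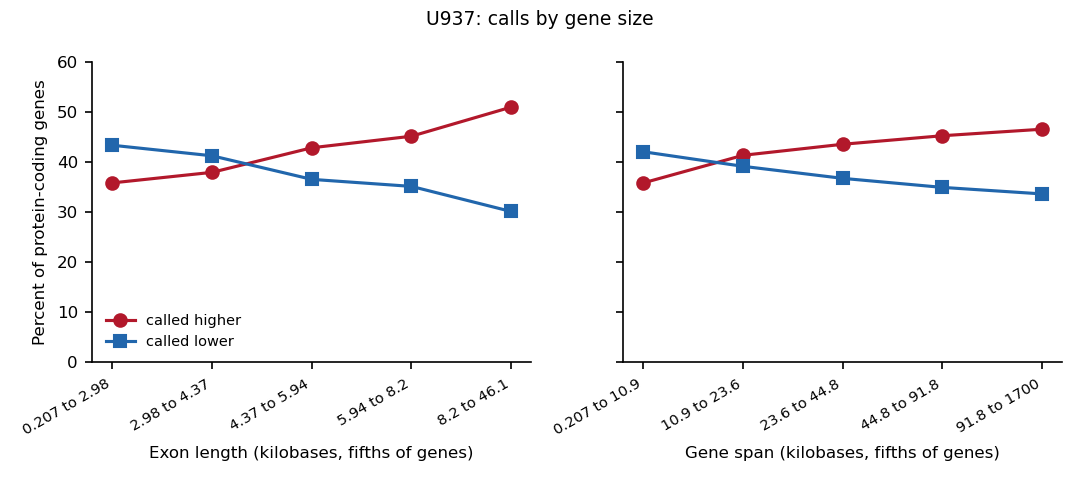
Percent of protein-coding genes called higher and called lower in dG, in 5 equal groups by exon length and by gene span. The share called higher climbs from 35.8% in the shortest group to 50.9% in the longest by exon length, and from 35.8% to 46.5% by span.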

How the data were processed

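Poly(A)-selected RNA of U937 cells was sequenced, 2 libraries per group. The deposited table holds raw counts per gene that the authors made. The authors' RPKM values, per the file headers, were carried along but support no result printed here. The submitters' processing notes name bcl2fastq 2.18.0.12, TopHat2, HTSeq 0.11.2 and hg38 without roles; the annotation release, strand setting and treatment of reads shared by genes are not given in the sources used here.

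Counts were fitted with edgeR 4.0.16 (R 4.3.3) over all 8 libraries of the series with 1 mean per group, TMM scaling and filterByExpr, which left 18314 genes. The quasi-likelihood test of dG against PBS was adjusted by Benjamini-Hochberg over all of them, with a threshold of 0.05. The CPM printed are TMM-scaled, and SE is the log2 fold change over the root of F. The script was tested on simulated counts. Gene types come from GENCODE 29, matched by 57388 IDs. Reads had no molecular identifiers, so counting intervals cover counting error only.

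The genes and the 50 gene lists were chosen with earlier results of these data known, and list counts are descriptions. Genes named in the text were drawn from the 15 largest rises and falls at a mean of at least 4 CPM, the 8 largest changes in CPM each way, up to 5 genes with 3 or fewer counts in a group, the 6 most abundant genes not called, and list members where their list is described. Gene families and 4 of the promoter windows were picked after their values were seen. The other 4 windows come from the genes with the largest falls, so all windows were drawn from genes called lower. Motif shares over all genes changed 2-fold are not given, since under 80% had a promoter in the table. That also holds for the genes with 1 CPM, whose share is given for the matched part only. Alternatives covered scaling, filters, the libraries fitted, the replicate number as a block, each replicate left out, DESeq2 1.42.0 and limma-voom (limma 3.58.1).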

Additional observations from a re-analysis of the deposited data

How the results depend on the processing

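The counts of genes that rose or fell stayed within 1.5 times the reported ones in every setting and fit tried, and no gene was called in opposite directions. Rises numbered 4837 with library size alone and 6160 with DESeq2 size factors, beside 5464, and falls 5982 and 4517, beside 5321. The DESeq2 Wald test gave 5542 rises and 3900 falls. Leaving out 1 library gave 5007 to 5569 rises, 4250 to 5105 falls, 1310 to 1510 rises of 2-fold or more and 878 to 1051 such falls. The replicate numbers are shared across groups, but same-numbered libraries did not deviate together (correlation 0.022); with the replicate number as a block, 5396 genes rose and 5235 fell. MT-CO1 changed sign with DESeq2 size factors (0.005), with the DESeq2 Wald test (0.005) and without dG replicate 2 (0.014); without PBS replicate 2 it was -0.108, the lowest of the values with 1 library left out, and with library size alone -0.159. The cause was not tested. Calls of genes near 0 moved with the scaling: with library size alone ASNS, BAX, GNL3, MEIS1, METTL1, MT-RNR2, MX1, NLRC5, SMS, TBP and TLR4 were called lower, and with DESeq2 size factors CD33, CYBA, DGUOK, FERMT3, FOXM1, RAC1, RHOA and STMN1 were called higher. With 2 libraries per group, small changes depend on single libraries, and genes under about 1 CPM rest on few counts.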
